A study of Mus musculus with 9 samples.

Results

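The phagocyte NADPH oxidase was examined at the transcript level in the hippocampus of N4 Ube3am-/p+ mice through 5 of its genes, Ncf1, Ncf4, Cybb, Cyba and Rac2. These are 5 of the 54532 genes in the count table and were chosen by name. Ncf1 was also selected on its measured values, since its p value in the comparison of Ant-134 with Scr ranked 6 of 19782 tested genes in these same samples. The group differences of the 5 genes are therefore given as a description, and nothing is read from their p values. All 5 passed the filter on low counts.

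The mice model Angelman syndrome. Every mouse in both groups carried the maternal Ube3a deletion on a background backcrossed to 129Sv/Ev, so no wild-type mouse is in this comparison. Ant-134, given to 5 mice, is a locked nucleic acid oligonucleotide that blocks miR-134. Scr, given to 4 littermates, is a scrambled oligonucleotide. Each mouse received 0.5 nmol by injection into the cerebral ventricle on postnatal day 21, underwent audiogenic seizure tests on days 22, 24 and 26, and was perfused with saline before its brain was removed 24 h after the last test. Each sample is the hippocampus of 1 mouse on the injected side, and poly-A RNA was sequenced in paired-end mode. The sex of the mice is not in the sample labels. The paper reports less severe seizures with Ant-134 in this test scheme, and a tendency to better survival that was not significant. Seizure scores of the sequenced mice are not in the labels. The part of seizure history and survival in the group values was not tested.

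The phagocyte oxidase moves electrons from NADPH across a membrane to oxygen and so makes superoxide, which microglia, macrophages and neutrophils release during host defence and inflammation. Its membrane core, a cytochrome, is a dimer of the catalytic subunit encoded by Cybb and the smaller stabilising subunit encoded by Cyba. The organiser subunit encoded by Ncf1 and the adaptor encoded by Ncf4 wait in the cytosol, and on stimulation they join the core together with a Rac GTPase, which in blood-derived cells is largely Rac2. In brain, microglia are the main resident cells that use this oxidase.

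The treatment acts on a microRNA, so the seed of miR-134 and its match in the genes are shown first. The mature sequence is that of RefSeq (GRCm38.p6, chr12:109734145-109734166, plus strand), with bases 2 to 8, the seed, in capitals.
mmu-miR-134-5p: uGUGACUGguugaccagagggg
Sites pair with the seed (CAGTCAC) or with all but its last base followed by an A (AGTCACA), and they were searched in each gene over the longest 3′ UTR that GENCODE M21 (GRCm38) gives a protein-coding transcript. Cybb, with a 3′ UTR of 2965 bases, held 1 site, AGTCACA at position 1329. Ncf1 (1690 bases), Ncf4 (189), Cyba (102) and Rac2 (2321) held 0. Among the 15278 tested genes with a 3′ UTR, 19.5% held a site. The stretch around the Cybb site (chrX:9436872-9436898, GRCm38, minus strand) is printed with the match in capitals.
Cybb site: ctgctagactAGTCACAtgtgaaaaaa

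Phagocyte genes are commonly controlled by PU.1 and by interferon, in part through the IRF family, so the promoters of the genes were read for 3 short motifs on both strands. RefSeq promoters (GRCm38.p6, 250 bases before to 50 after the start) were found for Ncf1, Cybb and Cyba. The motifs were GAGGAA for the PU.1 core (in 28.3% of 32851 promoters), TTCNNNGAA for the interferon-gamma-activated site, GAS (8.30%), and, for an interferon-stimulated response element, GAAA followed after 2 bases of any kind by GAAA (3.44%). Ncf1 held 1 GAS and 1 interferon-stimulated element, which share 3 bases. Cybb held 1 PU.1 core and 3 interferon-stimulated elements. Cyba held 0 of the 3. The Ncf1 matches and, for Cybb, the PU.1 core and the interferon-stimulated element nearest to the start are printed with the motif in capitals, because both genes were among the lower ones. Positions count from the RefSeq start site, itself 0, which for Cybb lies inside the span GENCODE gives the gene.
Ncf1 GAS at -88 (chr5:134229695-134229723, minus strand): agctcaaaaaTTCTCAGAAagtgaaagac
Ncf1 interferon-stimulated element at -82 (chr5:134229688-134229717, minus strand): aaaattctcaGAAAGTGAAAgactaagtct
Cybb interferon-stimulated element at -29 (chrX:9469334-9469363, minus strand): tctgataataGAAAAGGAAAcctattgccc
Cybb PU.1 core at 9 (chrX:9469300-9469325, minus strand, motif on the opposite strand): ctgttttcatTTCCTCatcagaagaa
These matches describe the printed windows and were not tested for binding.

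The libraries held between 28583298 and 41978113 counted fragments, and 3 counts, taken as the floor, correspond to 0.0709 to 0.107 CPM, which are counts scaled to library total after TMM normalization. The label of hippocampus was checked on neuronal genes, which were abundant in all samples, with Camk2a at 3750 ± 394 CPM (SD, n = 5) in Ant-134 and 3680 ± 404 CPM (SD, n = 4) in Scr. Of 19782 genes tested with edgeR's quasi-likelihood test, 827 (4.18%) had an unadjusted p value below 0.05, which is not above the share this threshold lets pass by itself, and 0 passed Benjamini-Hochberg adjustment, while DESeq2 gave 1027 and 16. Unadjusted p below 0.05 is the threshold of the study and is used below. Some libraries stood apart before any oxidase gene was considered. Ant-134 replicate 3 had 403 CPM of red blood cell transcripts against 44.0 to 116 CPM elsewhere. Choroid plexus transcripts varied widely in both groups, from 69.6 to 2580 CPM in Ant-134 and from 82.1 to 2020 CPM in Scr. The highest value was in Ant-134 replicate 1. Y-linked genes were near background in Ant-134 replicates 1 and 4 and in Scr replicate 3.

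Compared per gene length, in FPKM (fragments scaled to gene length and library total), the 5 genes were all low to moderate in hippocampus, and the membrane core and the cytosolic partners were not equally abundant. Cyba, the stabilising subunit, was highest with a median of 10 FPKM over the 9 samples. Rac2 followed with 4.54, Ncf1 with 3.89 and Ncf4 with 3.06. Cybb, the catalytic subunit, was lowest with 1.73 FPKM. Cyba exceeded Rac2, and Ncf4 exceeded Cybb, in 9 of 9 samples. Rac2 and Ncf1 were in that order in 7 of 9 samples and Ncf1 and Ncf4 in 8 of 9, so neighbours in the middle of the order were not separated in every mouse. The whole order held in 6 of 9 samples.

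The core subunits pair in the protein, but their transcripts did not keep a fixed ratio. Cyba over Cybb, in FPKM, was 6.81, 7.22, 12, 4.35 and 10.2 in Ant-134 replicates 1 to 5 and 3.76, 7.23, 5.69 and 4.22 in Scr replicates 1 to 4. The ratio spread widely in both groups and the groups overlapped. Ncf1 over Ncf4 was 1.30, 1.05, 1.39, 1.27 and 0.844 in Ant-134 and 1.51, 1.53, 1.53 and 1.83 in Scr. Here every Ant-134 sample lay below every Scr sample, and Ant-134 replicate 5 was the only sample with less Ncf1 than Ncf4. The ratio holds the Ncf1 values that chose the gene, so nothing is read from this separation.

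**Figure D1:**
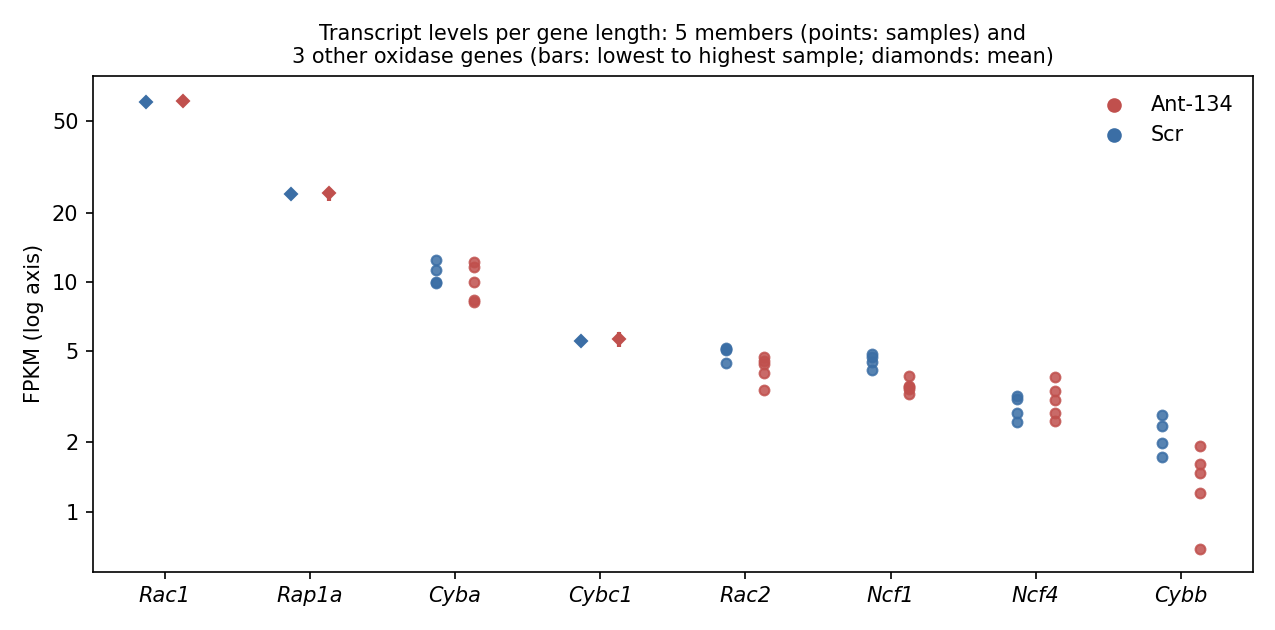
FPKM on a log axis for the 5 members, 1 point a sample, and for 3 other oxidase genes, shown as the mean (diamond) with a bar from the lowest to the highest sample, with Scr in blue (n = 4) and Ant-134 in red (n = 5). Cyba lies near 10 FPKM and Cybb near 1.73, with the lowest Cybb point, 0.685, in Ant-134 replicate 3.

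The group levels of the 5 genes were not alike. Ncf1, Cybb and Rac2 were lower in Ant-134, Cyba was lower by less than its standard error, and Ncf4 was slightly higher. In these bulk samples, fewer phagocytes and less RNA per phagocyte cannot be told apart. With edgeR, 3 of the 5 genes had an unadjusted p below 0.05, all lower, beside 2.69% of all tested genes lower and 1.49% higher, and without Scr replicate 1 only Ncf1 did. In 1 of the 5, Ncf1, every Ant-134 sample lay below every Scr sample, beside 0.895% of all genes, and in 0 of the 5 every Ant-134 sample lay above, beside 0.647%. Ncf1 entered through this contrast, so nothing is read from these counts. The median log2 fold change was -0.24 for the 5 genes, 0.0026 for all tested genes and -0.02 for the 2425 genes of a similar level.

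**Figure D2:**
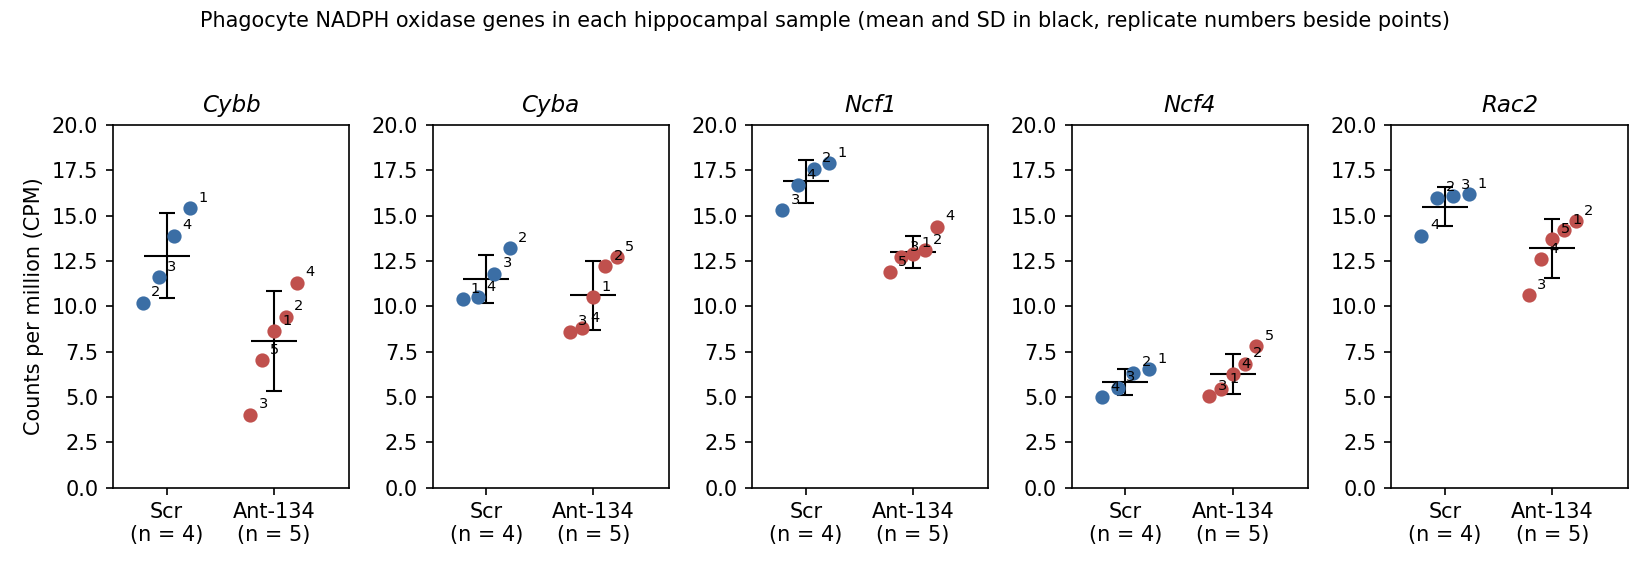
CPM of the 5 genes in each sample, with replicate numbers beside the points, Scr in blue (n = 4), Ant-134 in red (n = 5), and the mean and SD in black. The Ant-134 points of Ncf1, 11.9 to 14.4 CPM, lie below the Scr points, 15.3 to 17.9 CPM, whereas the points of Ncf4 and Cyba overlap.

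Ncf1 (ENSMUSG00000015950, chr5:134220053-134229625, GRCm38, minus strand) encodes the organiser subunit, which is phosphorylated on stimulation and then docks onto the membrane core. It was at 12.9, 13.1, 12.7, 14.4 and 11.9 CPM in Ant-134 replicates 1 to 5 and at 17.9, 17.6, 15.3 and 16.7 CPM in Scr replicates 1 to 4. The groups did not overlap, and the gap lay between Ant-134 replicate 4 and Scr replicate 3. The means were 13 ± 0.896 CPM (SD, n = 5) and 16.9 ± 1.19 CPM (SD, n = 4), and on the log2 scale the groups differed by -0.37 ± 0.0762 (standard error), that is, Ant-134 was at 0.771 of Scr. These values chose the gene.

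A small p favours a gene with a small spread within groups, so the spread of Ncf1 is not independent of how it was chosen. Its coefficient of variation was 6.89% in Ant-134 and 7.05% in Scr, where counting error alone would give 4.90% and 4.08%. Within the libraries with high Y-linked expression it was at 11.9 to 13.1 CPM in Ant-134 and 16.7 to 17.9 CPM in Scr, and within those with low Y-linked expression at 12.9 and 14.4 CPM against 15.3 CPM in the only Scr sample.

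Part of Ncf1 overlaps Gtf2ird2, a gene of the general transcription factor family on the opposite strand, which was looked up after the Ncf1 values were seen. Of 3663 exon bases of Ncf1, 408 (11.1%) are also exon of Gtf2ird2. Whether strand was used in counting is not given in the sources used here, and without it reads from the shared bases cannot be told apart. Gtf2ird2 was at 19.9 ± 0.847 CPM (SD, n = 5) in Ant-134 and 20.8 ± 1.77 CPM (SD, n = 4) in Scr. Its log2 fold change was -0.07 (standard error 0.0682). The part of this overlap in the Ncf1 values was not tested. The span of Cyba also lies within that of Gm20388, with 0 shared exon bases and 0 counts of Gm20388 in every sample.

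Cybb (ENSMUSG00000015340, chrX:9435252-9487771, minus strand), which encodes the electron-transferring catalytic subunit, had the largest difference and the largest spread of the 5. It was at 8.62, 9.43, 4.02, 11.3 and 7.02 CPM in Ant-134 and at 15.4, 10.2, 11.6 and 13.9 CPM in Scr. Of the 5 Ant-134 samples, 4 lay below the lowest Scr sample, and replicate 4 overlapped the Scr range. The means were 8.09 ± 2.75 CPM (SD, n = 5) and 12.8 ± 2.32 CPM (SD, n = 4), and the difference on the log2 scale was -0.65 ± 0.259 (standard error), which places Ant-134 at 0.635 of Scr.

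A single library had a large share in the spread of Cybb. Ant-134 replicate 3 held 113 Cybb counts, whereas the other 8 libraries held 212 to 492. The coefficient of variation was 34% in Ant-134 and 18.1% in Scr, against 6.16% and 4.72% from counting error alone. Without Ant-134 replicate 3 this difference was -0.49 ± 0.154 (standard error). Cybb lies on the X chromosome, so its levels are also given by Y-linked expression. Among libraries with high Y-linked expression it was at 4.02, 7.02 and 9.43 CPM in Ant-134 and at 10.2, 13.9 and 15.4 CPM in Scr, and among the others at 8.62 and 11.3 CPM in Ant-134 and 11.6 CPM in the only Scr sample. Ant-134 lay below Scr among the libraries with high Y-linked expression. Among the others, 1 Scr sample cannot show a group difference. Its count interval, 358 to 437, overlapped that of Ant-134 replicate 4, 310 to 384. With Y-linked expression as a covariate the log2 fold change was -0.70 (standard error 0.270).

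Cyba (ENSMUSG00000006519, chr8:122424776-122432930, minus strand) encodes the partner that stabilises the catalytic subunit and gives the cytosolic subunits their docking site, and it serves other oxidases too. It was at 10.5, 12.2, 8.61, 8.81 and 12.7 CPM in Ant-134 and at 10.4, 13.2, 11.8 and 10.5 CPM in Scr. The groups overlapped, and Ant-134 replicates 3 and 4 alone lay below all Scr samples. The means were 10.6 ± 1.89 CPM (SD, n = 5) and 11.5 ± 1.33 CPM (SD, n = 4), and differed by -0.12 ± 0.125 (standard error) on the log2 scale. Leaving out single samples gave between -0.192 (Ant-134 replicate 5) and -0.0415 (Scr replicate 2), and the replicate number as a block gave -0.199.

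Ncf4 (ENSMUSG00000071715, chr15:78244801-78262580, plus strand) encodes the adaptor that binds a phagosomal lipid and supports oxidase activity on internal membranes. Its group means were the lowest of the 5 in CPM, although Cybb was lower still in Ant-134 replicates 3 and 5. It was at 5.45, 6.84, 5.05, 6.26 and 7.81 CPM in Ant-134 and 6.52, 6.34, 5.51 and 5.01 CPM in Scr. The ranges overlapped broadly, and the highest values, replicates 5 and 2, were in Ant-134. The means were 6.28 ± 1.10 CPM (SD, n = 5) and 5.84 ± 0.708 CPM (SD, n = 4), and differed by 0.10 ± 0.138 (standard error) on the log2 scale. Leaving out single samples gave between 0.0155 (Ant-134 replicate 5) and 0.171 (Ant-134 replicate 3), and the block gave 0.0131.

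Rac2 (ENSMUSG00000033220, chr15:78559167-78572783, minus strand), the haematopoietic Rac GTPase that switches the assembled oxidase on, lies on the same chromosome as Ncf4. It was at 14.2, 14.7, 10.6, 12.6 and 13.7 CPM in Ant-134 and at 16.2, 16, 16.1 and 13.9 CPM in Scr. In Ant-134 3 of 5 samples lay below the lowest Scr sample, replicate 4, which itself was apart from the other 3 Scr samples. The means were 13.2 ± 1.62 CPM (SD, n = 5) and 15.5 ± 1.07 CPM (SD, n = 4), and the difference on the log2 scale was -0.24 ± 0.0936 (standard error), with Ant-134 at 0.849 of Scr. Without Ant-134 replicate 3 it was -0.17 ± 0.0807.

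How the genes vary together between mice of 1 group was examined next. Each log2 CPM value was taken as a difference from its group mean, and the 10 pairs of genes were correlated over the 9 samples, with exact two-sided p values from all permutations within groups. No pair passed: the smallest p, for Cyba and Rac2 (Pearson's r = 0.714, exact p = 0.059, adjusted p = 0.354; Spearman's rho = 0.683, exact p = 0.122, adjusted p = 0.392), was above 0.05, and 0 of 10 pairs had an unadjusted p below 0.05 by either coefficient. Without the 2 samples with the most extreme Cyba values, r was 0.638 for this pair. Ncf4 reached r = 0.659 with Cyba (exact p = 0.105; rho = 0.600, exact p = 0.157) and 0.641 with Rac2 (exact p = 0.106; rho = 0.617, exact p = 0.124). Adjusted p was 0.354 for r and 0.392 for rho in both. Without the 2 samples most extreme in Ncf4, r was 0.311 and 0.458. Leaving out single samples moved r between 0.584 and 0.801 for Cyba and Rac2, between 0.487 and 0.82 for Ncf4 and Cyba, and between 0.382 and 0.851 for Ncf4 and Rac2. The first 2 of these pairs reached an unadjusted exact p below 0.05 without Scr replicate 1 (0.0333 and 0.0458), and the third without Ant-134 replicate 1 (0.0312). None passed adjustment in these subsets.

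The pairs with Ncf1 are given as a description, since its deviations belong to the values that chose it. Its r was 0.0734 with Ncf4, -0.0286 with Rac2, -0.411 with Cyba and 0.46 with Cybb, and its rho was from -0.30 to 0.617. Without the 2 samples most extreme in Ncf1, r with Cybb was 0.263 and with Cyba -0.23. Leaving out single samples moved r with Cybb between 0.20 and 0.65, with Cyba between -0.603 and -0.172 and with Rac2 between -0.23 and 0.0765. With Ncf4, r was 0.579 without Ant-134 replicate 5 and between -0.0608 and 0.0776 without any other sample.

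Cybb and Cyba, the partners of the core, had an r of 0.0318 (exact p = 0.967; rho = -0.10, exact p = 0.833; adjusted p 0.967 and 0.926), and without Ant-134 replicate 3 and Scr replicate 2 r was -0.623. Leaving out Ant-134 replicate 3 alone gave -0.866 (exact permutation p = 0.0208, unadjusted), so the value of this pair rests on that sample. Cybb and Rac2 had an r of 0.57 (exact p = 0.216; rho = 0.40, exact p = 0.363; adjusted p 0.473 and 0.701), which was -0.131 without the same 2 samples, so this relation did not hold. Ncf4 and Cybb had an r of 0.327 (exact p = 0.512; rho = 0.267, exact p = 0.561; adjusted p 0.732 and 0.701) and 0.0406 without 2 samples. Without Ant-134 replicate 3 alone, r was -0.314 for Ncf4 and Cybb and -0.353 for Cybb and Rac2, and leaving out other samples gave up to 0.516 and 0.751.

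Ant-134 replicate 3 was the lowest of its group for Cybb, Rac2, Ncf4 and Cyba, by -0.92, -0.30, -0.29 and -0.28 on the log2 scale from the group mean, but not for Ncf1, at -0.03. The same library held the most red blood cell transcripts. The part of this in the oxidase values was not tested.

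**Figure D3:**
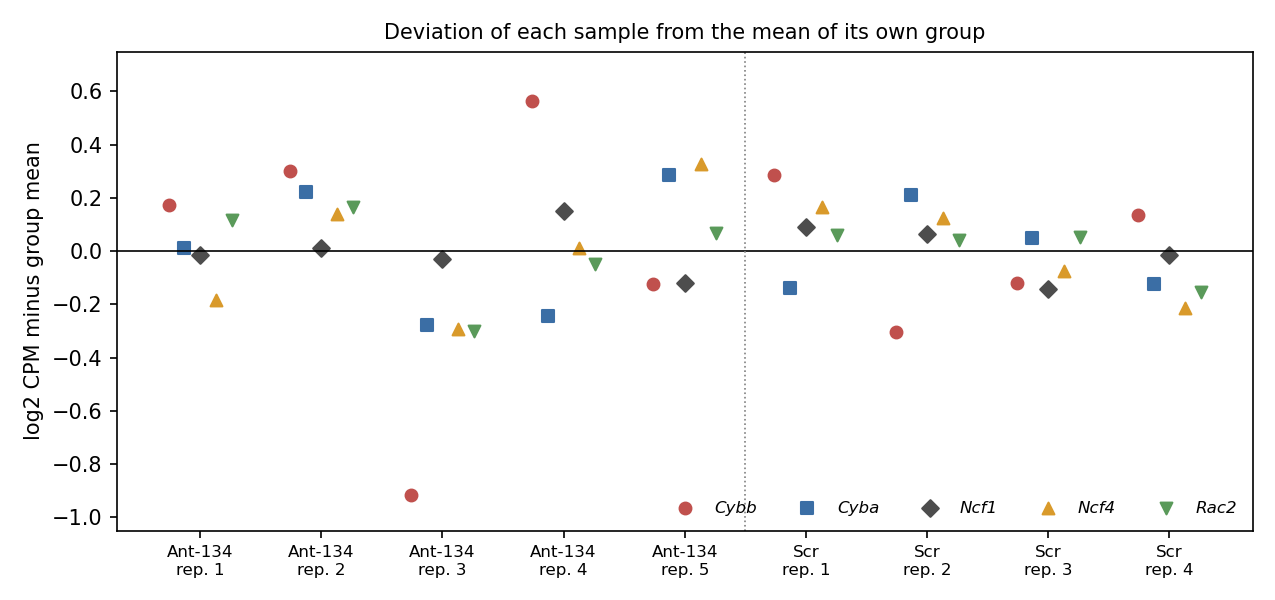
Difference of log2 CPM from the mean of the sample's own group for each of the 5 genes in the 9 samples, 1 symbol a gene. Ant-134 replicate 3 has the lowest point, Cybb at -0.92, while Ncf1 stays between -0.141 and 0.151 in all samples.

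The mean deviation of the 5 genes was then set against the deviations of every tested gene over the 9 samples, and by Pearson's r the most alike were Rassf4 (0.988), Rbpms2 (0.981), Ska2 (0.954), Gm5150 (0.952) and AB124611 (0.948). These are descriptions, since all values of a sample share 1 library and the mean deviation is led by Ant-134 replicate 3, at -0.363. Among 18 microglia markers the closest was Ctss, a lysosomal protease gene, with an r of 0.701, which ranked 672. For P2ry12, a receptor of resting microglia, r was -0.472.

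None of the remaining oxidase subunits and paralogs that passed the filter on low counts was called. Of the 14 such genes with a row, 8 were tested, and 0 of these had an unadjusted p below 0.05 in either direction with edgeR or with DESeq2. Nox3, a paralog of the inner ear, was below the filter with at most 6 counts in any library, and was lower by this threshold in DESeq2 run without a filter. Rac1, the ubiquitous GTPase that can replace Rac2, was at 61.2 FPKM in Ant-134 and 60.8 FPKM in Scr and differed on the log2 scale by 0.0080 (standard error 0.0379). Rac1 over Rac2 in FPKM was 12.8 to 18.6 in Ant-134 and 11.6 to 13.8 in Scr.

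Rap1a, a small GTPase found with the core cytochrome, had a log2 fold change of 0.02 (standard error 0.0490), Cybc1, the chaperone of the core, 0.03 (standard error 0.0622), and Rac3, a neuronal Rac, -0.04 (standard error 0.0556). Of the other catalytic paralogs, Nox4 at 0.0437 and 0.0426 FPKM in Ant-134 and Scr was tested and had a log2 fold change of 0.02 with a standard error of 0.331, too wide to show a difference of that size. Duox1 was at 0.0542 and 0.0506 FPKM and Noxo1, the organiser of another oxidase, at 0.511 and 0.473 FPKM. Nox1, Nox3, Noxa1, Duox2, Duoxa1 and Duoxa2 were below the filter. Cybb was thus the most abundant catalytic oxidase transcript in these samples.

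The genes that switch the oxidase on included several lower ones. Of 20 genes of oxidase activation and the Rac cycle, 5 were lower at an unadjusted p below 0.05 and 0 higher with edgeR, beside 2.69% and 1.49% of all tested genes, and the median log2 fold change was -0.01, near that of all genes. None passed Benjamini-Hochberg adjustment, with 0.987 the smallest adjusted p. Prex1, an exchange factor that loads Rac, was at 134 ± 5.10 CPM (SD, n = 5) in Ant-134 and 149 ± 6.17 CPM (SD, n = 4) in Scr. Its groups did not overlap, and its log2 fold change was -0.15 (standard error 0.0434, rank 58 by p). Dock2 and Vav1, Rac activators of blood cells, had log2 fold changes of -0.38 (rank 240 by p) and -0.23 (rank 387 by p).

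Hvcn1, the proton channel that balances the charge the oxidase moves, was at 1.33 ± 0.213 CPM (SD, n = 5) in Ant-134 and 1.85 ± 0.239 CPM (SD, n = 4) in Scr. Its log2 fold change was -0.48 (standard error 0.182, rank 315 by p). Arhgdib, the inhibitor that holds Rac in the cytosol of blood cells, had a log2 fold change of -0.27 (rank 553 by p, called in 3 of 9 fits that leave out 1 sample). Its widely expressed relative Arhgdia, the most abundant gene of the list at 149 and 146 FPKM, had 0.02 (standard error 0.0455), and Pak1, a kinase downstream of Rac at 73.9 and 70.6 FPKM, had 0.06 (standard error 0.0440).

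Of 16 receptors that trigger the oxidase, 3 were lower at an unadjusted p below 0.05 and 0 higher, against the same 2.69% and 1.49%, and the median log2 fold change was -0.17. Itgb2, the beta chain of the leukocyte integrins, was at 11 ± 1.60 CPM (SD, n = 5) and 14.3 ± 1.39 CPM (SD, n = 4). Its log2 fold change was -0.38 (standard error 0.105, rank 47 by p). C3ar1, the receptor of complement fragment C3a, had -0.40 (rank 563 by p), or -0.243 and no call without Scr replicate 1, and Fpr1, a receptor of bacterial peptides, -0.48 (rank 718 by p). C3ar1 and Fpr1 were each called in 4 of 9 fits that leave out 1 sample. Tyrobp and Fcer1g, the signalling adaptors with the highest levels of the list at 26.8 and 11.1 FPKM in Ant-134, had log2 fold changes of -0.17 (standard error 0.123) and -0.18 (standard error 0.197).

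**Figure D4:**
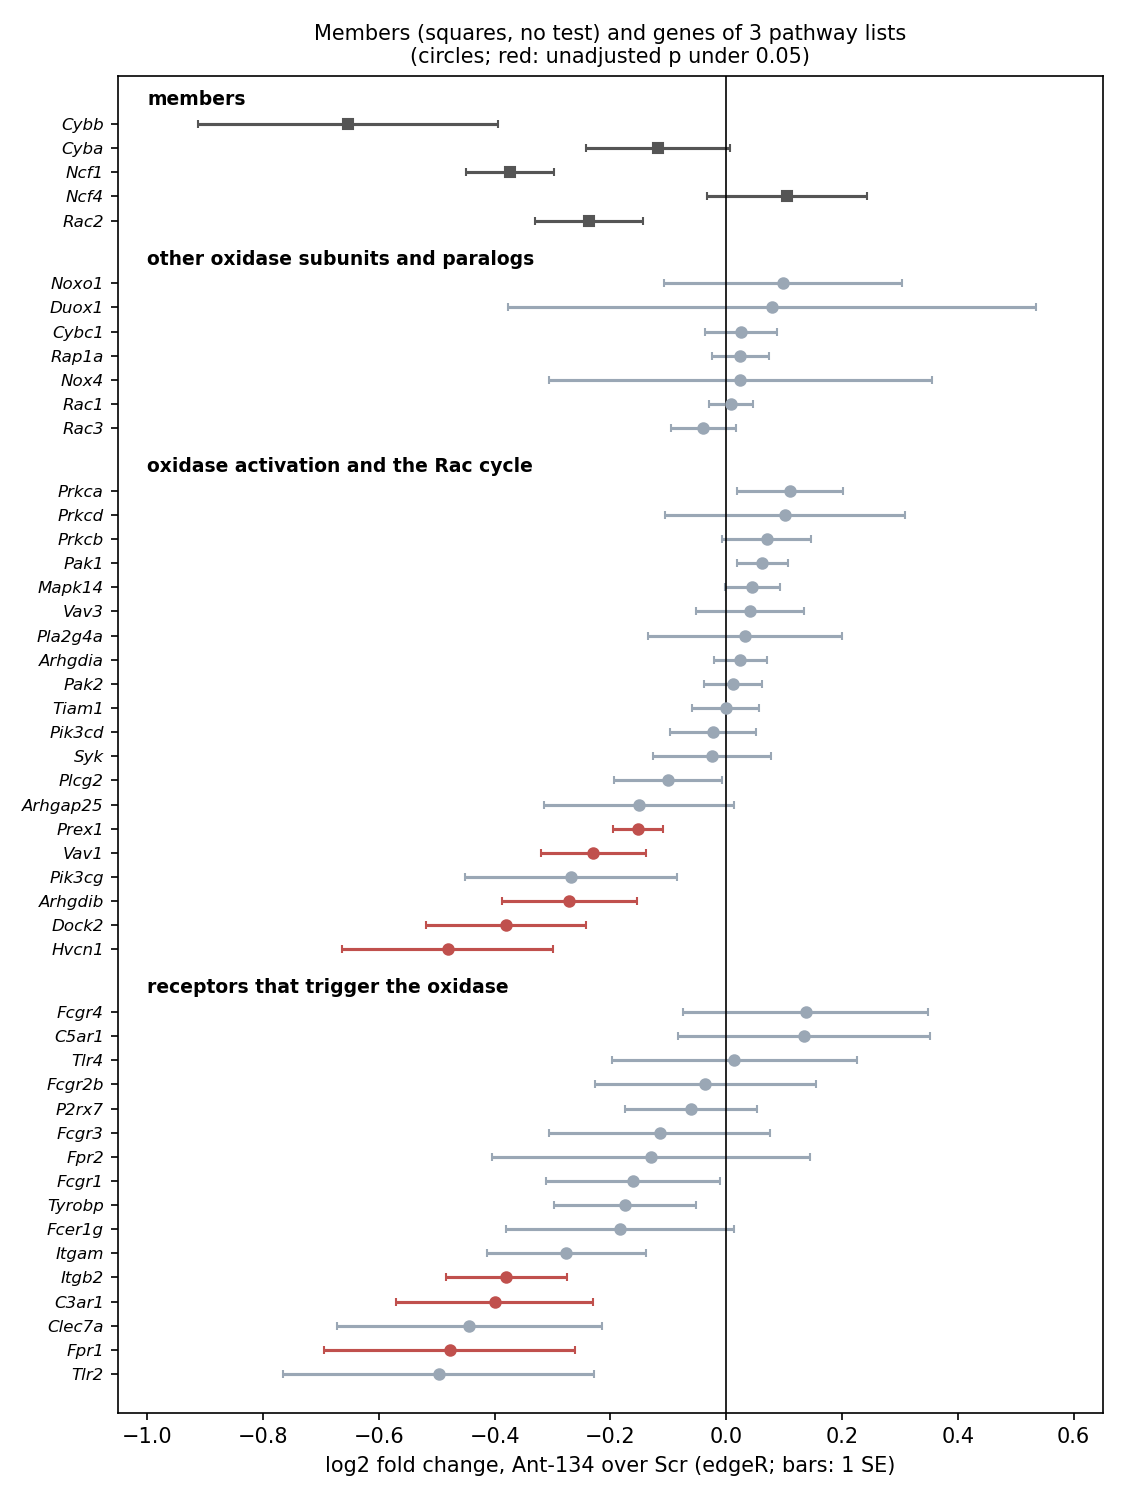
Log2 fold change of Ant-134 over Scr with 1 standard error for the 5 members (squares, shown without a test) and for tested genes of 3 pathway lists (circles, red where the unadjusted edgeR p was below 0.05). Members range from -0.65 for Cybb to 0.10 for Ncf4, the other oxidase subunits lie around 0, and all 8 red circles lie on the lower side.

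Most regulators of the kind whose motifs were read above did not pass the threshold. Of 14 tested transcription factors and interferon-gamma signalling genes, 1 was lower and 0 higher, beside 2.69% and 1.49% of all tested genes. The median log2 fold change of the list was -0.07. The lower gene was Irf1, an interferon-induced factor, at 10.1 ± 1.87 CPM (SD, n = 5) and 12.3 ± 1.49 CPM (SD, n = 4). Its log2 fold change was -0.28 (standard error 0.131, rank 815 by p), and it was called in 4 of 9 fits that leave out 1 sample. Spi1, which encodes PU.1, and Irf8, its partner in microglia, had log2 fold changes of -0.22 (standard error 0.109) and -0.27 (standard error 0.131). Jak1 and Ifngr2, the most abundant of the list at 21.9 and 18.6 FPKM in Ant-134, had 0.04 (standard error 0.0574) and 0.02 (standard error 0.0494).

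The enzymes that remove superoxide and peroxide showed no called gene. Of 22 genes 0 passed in either direction at an unadjusted p below 0.05 with edgeR or DESeq2, and the median log2 fold change was 0.0073. Gpx4 and Prdx5, the most abundant at 118 and 89.1 FPKM in Ant-134, had -0.02 (standard error 0.0562) and 0.02 (standard error 0.0515). Of 6 other oxidant sources tested, 1 was lower, beside 2.69% of all tested genes. This was Nos3, the endothelial nitric oxide synthase, at a log2 fold change of -0.30 (standard error 0.119, rank 408 by p). Maoa, a monoamine oxidase at 7.52 FPKM in Ant-134, had -0.10 (standard error 0.0591), and Nos1, the neuronal synthase at 7.60 FPKM, had 0.08 (standard error 0.0650).

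Over the 6 pathway lists, 10 of 86 tested genes were lower at an unadjusted p below 0.05, beside 2.69% of all tested genes, and 0 were higher. Of the 10, 4 were still called without Scr replicate 1, 5 without Ant-134 replicate 3, 6 without Scr replicate 2 and 7 to 9 without any other sample. The number of pathway genes called was 5 without Scr replicate 1, of which 4 were lower, and 6 without Scr replicate 2. At most 1 pathway gene was called higher under any alternative, as with the replicate number as a block or without Ant-134 replicate 5.

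Some microglial transcripts were lower in Ant-134 too. Of 18 microglia markers, 7 were lower with edgeR and 0 higher, beside 2.69% of all tested genes lower, and 11 did not pass. The median log2 fold change was -0.18, and their summed level was 583 to 622 CPM in Ant-134 and 651 to 751 CPM in Scr, without overlap. The mean log2 CPM of the same markers did overlap, at 4.27 to 4.45 in Ant-134 and 4.34 to 4.72 in Scr. Among them C1qc, a complement subunit, had a log2 fold change of -0.21 (rank 33 by p) and Csf1r, the receptor on which microglia depend, -0.23 (rank 41 by p). C1qb, the marker with the highest level at 61.4 and 67.4 FPKM, had -0.14 (rank 353 by p).

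Set against the mean log2 CPM of these 18 markers in the same sample, the 5 genes kept different positions. The marker mean itself differed by -0.15. Relative to it, Ncf1 was at -0.656, -0.617, -0.776, -0.521 and -0.681 in Ant-134 replicates 1 to 5 and at -0.55, -0.415, -0.401 and -0.34 in Scr replicates 1 to 4. Ant-134 was lower by 0.224 on average, and only Ant-134 replicate 4 and Scr replicate 1 crossed. Since Ncf1 was chosen on this contrast, its difference is a description. The difference of Cybb was -0.57, that of Rac2 -0.10, that of Cyba 0.02 and that of Ncf4 0.24, all with overlapping groups. The part of microglial content in the group values of the 5 genes was not tested.

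**Figure D5:**
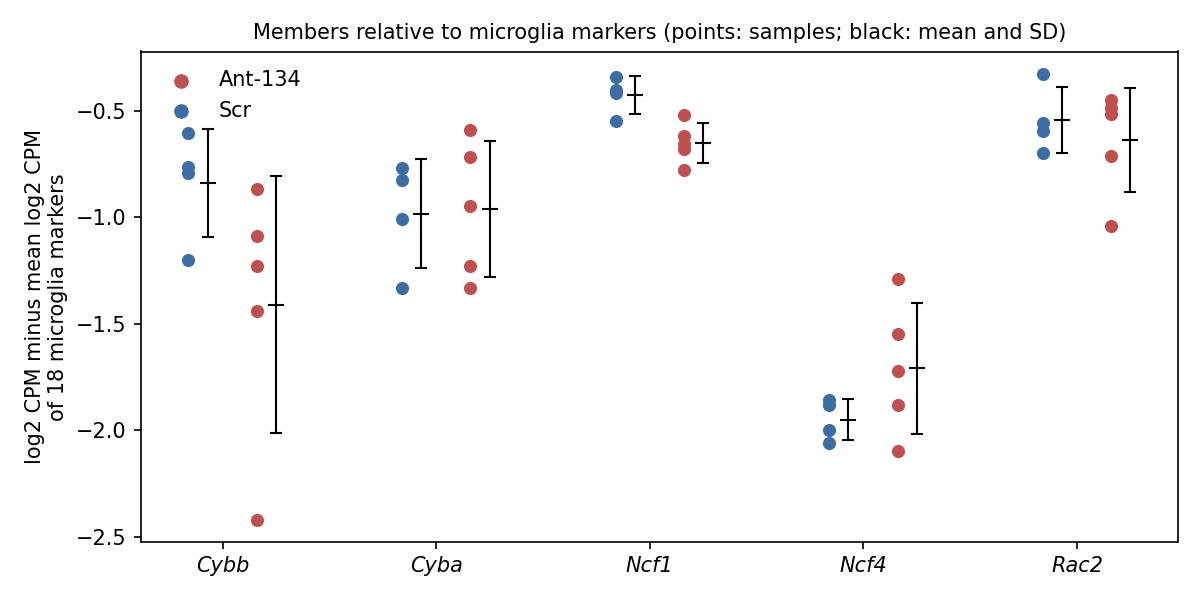
Log2 CPM of each of the 5 genes minus the mean log2 CPM of 18 microglia markers in the same sample, Scr in blue (n = 4) and Ant-134 in red (n = 5), with the mean and SD in black. Ncf1 lies at -0.776 to -0.521 in Ant-134 and -0.55 to -0.34 in Scr, while the points of Cyba overlap widely.

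Markers of other cell types, some of which carry this oxidase, differed widely in level between lists and often between samples. Of 12 neutrophil markers 7 were tested and 0 called, and their sum was 24.0 to 67.4 CPM in Ant-134 and 28.4 to 48.0 CPM in Scr. Ly6g, which marks mature neutrophils, had at most 3 counts in any library. The highest, S100a9, a calcium-binding protein gene, was at 19.9 and 16.3 FPKM. Of 7 monocyte markers, 1 was lower, Chil3 (log2 fold change -0.59, rank 499 by p, called in 4 of 9 fits that leave out 1 sample), beside 2.69% of all tested genes. The sum of the monocyte markers was 42.2 to 67.1 CPM and 54.9 to 70.9 CPM, with Plac8 highest at 3.44 and 3.70 FPKM. Of 8 border macrophage markers 2 were lower, Ms4a7 (log2 fold change -1.02, rank 71 by p) and Stab1 (-0.28, rank 140 by p), beside the same 2.69%. But 3 of the 8 had values above 0 (Mrc1, Cd163 and Lyve1, at 0.15 to 0.36) and the median was -0.02, with sums of 32.8 to 40.6 CPM and 35.1 to 49.2 CPM. T and NK cell markers summed to 3.92 to 5.35 CPM and 3.92 to 5.83 CPM, and B cell markers to 0.832 to 1.25 CPM and 1.10 to 2.26 CPM, with 0 called in either list by edgeR or DESeq2. Red blood cell markers (5 genes) and choroid plexus markers (8 genes) also had 0 called, with medians of 1.01 and -0.06 and, for the latter, sums of 69.6 to 2580 CPM and 82.1 to 2020 CPM.

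Of 8 markers of meningeal fibroblasts 6 were lower, beside 2.69% of all tested genes, among them Igf2 (-0.87, rank 52 by p), Lum (-0.48, rank 137 by p) and Slc6a13 (-0.50, rank 336 by p), and their sum was 101 to 183 CPM in Ant-134 and 154 to 210 CPM in Scr. Of these 6, Col1a1 was called in 2 and Ogn in 3 of the 9 fits that leave out 1 sample. Of 8 neuronal markers 1 was higher, Snap25 (0.12, rank 636 by p, called in 3 of these 9 fits), beside 1.49% of all tested genes. To it DESeq2 added Stmn2 (edgeR 0.09, rank 1165 by p). None of 6 markers each of astrocytes, oligodendrocytes and hippocampal neurons were called by edgeR or DESeq2, with Gfap at 275 and 271 FPKM and Neurod6 at 87.9 and 78.5 FPKM. The part of these cells in the oxidase values was not tested.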

How the data were processed

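The authors mapped paired-end reads of 9 hippocampal samples to GRCm38 with HISAT2 2.0.5 and counted them with featureCounts 1.5.0-p3. They deposited raw counts per gene and FPKM, which equalled counts over gene length and library total within a factor of 0.9778 to 1.007. Counts were analysed here with edgeR 4.0.16 in R 4.3.3: filterByExpr with a minimum count of 10, TMM, and the robust quasi-likelihood test of Ant-134 against Scr without covariates, with Benjamini-Hochberg adjustment over 19782 genes. CPM are TMM-normalized. The fit was tested on simulated data, with calls at an unadjusted p below 0.05. For log2 changes of 0.25, 0.5 and 1 it called 45.5%, 75.6% and 94.4% of changed genes. Of unchanged genes it called 4.47% to 4.59%. A gene not called may therefore still differ by about 0.25. The floor of 3 counts covers counting error only. Samples were grouped by their labels. Log2 CPM for correlations used a prior count of 2.

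The members and all lists were chosen with earlier results of these data known. Named were the 5 members, all other oxidase genes, from each other pathway list the called genes and the 2 of highest FPKM, from each marker list the highest and up to 3 called, and the 5 genes most alike. Some genes under this rule are not reported here. Gtf2ird2, Gm20388, Ctss and P2ry12 were added outside it, with their values known. Alternatives were DESeq2 1.42.0, its size factors, other filters, no robust estimation, a Y-linked covariate, a replicate block, limma 3.58.1 on log2 FPKM with a pseudocount of 1 or 0.1, and leaving out each sample.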

Additional observations from a re-analysis of the deposited data

Results flagged for a closer look

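In 15 of 218 groups of values a sample lay far from the others of its group by Dixon's criterion, where chance flags about 1 in 20 groups, or 10.9 here. Among the oxidase genes this was Rac2 in Scr replicate 4, the lowest at 13.9 CPM against 16 to 16.2 CPM in the other Scr samples. In the same library Hvcn1 was lowest at 1.49 CPM and Xdh highest at 5.62 CPM. In Scr replicate 1, Itgb2 was highest at 16.3 CPM and Irf8 at 17 CPM, both above the other 3 Scr samples (13.4 to 13.9 and 11.3 to 12.3 CPM), so the differences of these genes are smaller without it. Ant-134 replicate 3, the library with the lowest Cybb, was lowest for Tyrobp at 13 CPM (18.4 to 20 elsewhere in the group), Txnrd1 at 60.3 CPM, Hmox1 at 7.44 CPM and Rassf4 at 10.5 CPM, and highest for the red blood cell markers at 403 CPM. Tlr4 was lowest in Scr replicate 2 at 1.06 CPM, Fpr2 highest in Scr replicate 3 at 2.14 CPM, and the monocyte markers lowest there at 54.9 CPM. Ant-134 replicate 1 was highest for Sod3 at 8.65 CPM and for the choroid plexus markers at 2580 CPM.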

How the results depend on the processing

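The direction of each of the 5 genes was kept under all 19 alternatives. The log2 fold change was -0.42 to -0.30 for Ncf1, -0.285 to -0.171 for Rac2, -0.80 to -0.43 for Cybb, -0.199 to -0.0415 for Cyba and 0.0131 to 0.171 for Ncf4. Since Ncf1 was chosen on this contrast, its range is a description and no support. Leaving out each sample in turn left between 1 and 3 of the 5 called. Of the pathway genes, Prex1 and Itgb2 were called in 19 of 19 alternatives, Hvcn1 in 18, Nos3 in 16, Vav1 in 15, Dock2 in 14, Arhgdib and Fpr1 in 11, C3ar1 in 9 and Irf1 in 7. Leaving out single samples gave between 5 and 13 called pathway genes (6 without Scr replicate 2), which held 4 to 9 of the 10, and between 629 and 973 called genes in all, which held 440 to 609 of the 827. Without a filter on low counts 1775 genes were called, and 1467 with limma on log2(FPKM + 1) without a filter, with 37454 genes tested in both, and the cause was not tested. The 533 lower and 294 higher genes became 633 and 450 with limma on log2(FPKM + 1). The numbers of the replicates did not pair the samples (correlations of same-numbered samples -0.115 to 0.012). With the replicate block, 808 genes, 3 of the 5 oxidase genes and 6 pathway genes were called, which held 465 of the 827 and 2 of the 10 pathway genes, and the cause was not tested. Of the 10 pairs of members, 0 passed adjustment in any of the 11 alternatives. At this depth, counting error was below the spread between mice for all 5 genes, and low genes such as Nox4 were limited by it.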
